A study of Mus musculus with 8 samples.

Results

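The CXC chemokines described here were 9 genes, Cxcl1, Cxcl2, Cxcl9, Cxcl10, Cxcl11, Cxcl12, Cxcl13, Cxcl14 and Cxcl16. They were taken by gene symbol from a table of 56691 genes, and all 9 were found. RNA had been sequenced in bulk from 8 libraries of mouse Kupffer cells, macrophages that reside in the liver sinusoids. Of these, 4 libraries came from Vsig4-/- mice (KO) and 4 from wild-type mice (WT). Mice of both genotypes carried liver metastases of B16F10, a mouse melanoma line, and the cells were isolated 7 days after the tumour cells had been injected. Cells were sorted from digested, tumour-enriched liver as DAPI-negative, CD45-positive and Tim-4-positive. The deletion was not described as limited to a cell type, no liver without tumour was included, and the sex, age and number of mice were not given. Since nothing in the labels says that libraries came from separate mice, p-values take in only how these libraries differ from one another, which may be technical.

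Chemokines of the CXC class are small secreted proteins that direct leukocytes through G protein-coupled receptors. Cxcl9, Cxcl10 and Cxcl11 are induced by interferons and draw activated T cells and NK cells through Cxcr3. Cxcl13 draws B cells through Cxcr5, Cxcl16 is made as a membrane-bound protein and binds Cxcr6, Cxcl12 binds Cxcr4, and Cxcl1 and Cxcl2 recruit neutrophils through Cxcr2. In the liver, macrophages, sinusoidal endothelium and stromal cells all make members of the family.

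Vsig4, the targeted gene, encodes a complement receptor of tissue macrophages. It had 9, 6, 2 and 4 counts in KO 1 to KO 4, against 40604, 46735, 22498 and 25498 counts in WT 1 to WT 4. Libraries held 15264043 to 19513844 counts. All 10 Kupffer cell markers, Clec4f and Timd4 among them, were detected in every library. Their summed level was lowest in KO 3, at 7210 CPM (a gene's share of the TMM-scaled library size), against 17124 to 22760 CPM in the other KO libraries and 18564 to 33612 CPM in WT libraries. Melanoma transcripts were also present, with all 10 markers detected in every library. They summed to 2555, 3647, 12624 and 6575 CPM in KO 1 to KO 4, against 571.7, 504.9, 5650 and 4834 CPM in WT 1 to WT 4. In bulk RNA of this kind, fewer cells of a type and less RNA per cell cannot be told apart.

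By the positions in the deposited table, given without a build, Cxcl1 (91039100 to 91040974) and Cxcl2 (91051730 to 91053797) lie on the plus strand of chromosome 5. Cxcl9, Cxcl10 and Cxcl11 lie together on the minus strand of that chromosome, from 92469206 to 92513344. These 44139 bases hold no other gene of the table in full. Cxcl13 is also on chromosome 5, Cxcl12 on chromosome 6, Cxcl14 on chromosome 13 and Cxcl16 on chromosome 11. Part of Art3, on the opposite strand, overlaps Cxcl10 and Cxcl11, and part of Zmynd15 overlaps Cxcl16. Whether reads were counted by strand is not known, so reads from these overlapping stretches could not be assigned with certainty. Art3 had 893 counts over the KO libraries and 315 over the WT libraries, and Zmynd15 had 3065 over KO and 3508 over WT.

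Promoter sequence from RefSeq (GRCm38.p6) was held for 7 of the 9 members. The window ran from 250 bases before to 50 bases after the start. The 250 bases before the start are shown for the pair of Cxcr3 ligands, for Cxcl14, for Cxcl13 and for the pair of Cxcr2 ligands, since these carry the contrasts described below. Capitals mark matches to 3 motifs searched on both strands: the core of the interferon-stimulated response element (GAAANNGAA), the gamma-activated site (TTCNNNGAA) and the NF-kB consensus. Each is read 5′ to 3′ on the strand of the gene, and the positions are chr5:92328080-92328329 (minus strand) for Cxcl9, chr5:92348890-92349139 (minus strand) for Cxcl10, chr13:56296552-56296801 (minus strand) for Cxcl14, chr5:95956689-95956938 (plus strand) for Cxcl13, chr5:90890995-90891244 (plus strand) for Cxcl1 and chr5:90903649-90903898 (plus strand) for Cxcl2.
Cxcl9: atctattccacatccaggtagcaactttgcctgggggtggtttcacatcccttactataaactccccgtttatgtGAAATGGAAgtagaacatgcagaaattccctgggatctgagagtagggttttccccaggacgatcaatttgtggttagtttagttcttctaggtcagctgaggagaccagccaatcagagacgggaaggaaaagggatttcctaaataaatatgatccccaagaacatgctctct
Cxcl10: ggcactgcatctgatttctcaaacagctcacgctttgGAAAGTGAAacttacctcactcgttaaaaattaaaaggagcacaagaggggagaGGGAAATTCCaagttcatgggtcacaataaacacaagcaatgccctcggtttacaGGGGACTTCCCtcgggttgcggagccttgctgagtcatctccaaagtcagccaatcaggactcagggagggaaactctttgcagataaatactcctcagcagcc
Cxcl14: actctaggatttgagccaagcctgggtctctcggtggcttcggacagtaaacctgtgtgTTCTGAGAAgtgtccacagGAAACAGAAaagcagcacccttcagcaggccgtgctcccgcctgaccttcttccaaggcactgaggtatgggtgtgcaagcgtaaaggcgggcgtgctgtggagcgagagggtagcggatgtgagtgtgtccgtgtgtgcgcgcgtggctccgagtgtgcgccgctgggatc
Cxcl13: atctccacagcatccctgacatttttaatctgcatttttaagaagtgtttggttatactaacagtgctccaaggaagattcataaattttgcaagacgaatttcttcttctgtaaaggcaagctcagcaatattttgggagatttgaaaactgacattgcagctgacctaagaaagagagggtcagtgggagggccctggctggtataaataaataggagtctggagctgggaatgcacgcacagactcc
Cxcl1: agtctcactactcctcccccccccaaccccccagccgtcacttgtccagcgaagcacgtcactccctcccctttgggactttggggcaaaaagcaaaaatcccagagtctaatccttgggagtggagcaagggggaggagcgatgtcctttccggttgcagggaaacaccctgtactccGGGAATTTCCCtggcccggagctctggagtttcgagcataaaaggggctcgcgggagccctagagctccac
Cxcl2: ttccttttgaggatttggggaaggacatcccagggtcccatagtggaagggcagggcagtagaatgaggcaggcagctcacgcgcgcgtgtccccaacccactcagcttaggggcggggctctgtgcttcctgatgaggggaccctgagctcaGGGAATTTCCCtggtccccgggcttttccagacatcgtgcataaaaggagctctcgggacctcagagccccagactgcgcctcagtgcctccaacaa

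The Cxcl9 window held the interferon-stimulated response element core GAAATGGAA, its first base 175 bases before the start. Cxcl10 held GAAAGTGAA from 213 bases before the start, and NF-kB matches from 159, 104 and 103 bases before it, the last 2 of which overlap. Cxcl14 held 1 interferon-stimulated core and 1 gamma-activated site. Cxcl1 and Cxcl2 each held the NF-kB match GGGAATTTCC, read on the plus strand from 71 and 97 bases before their starts, with an overlapping match on the other strand. Of 32851 promoters of the same length, 8.56% held the interferon-stimulated core, 8.3% the gamma-activated site and 8.46% the NF-kB consensus. No match to these letters lay in the windows of Cxcl13 and Cxcl12.

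Cxcl13 was the most abundant CXC chemokine in these libraries. Levels between genes were compared in the authors' FPKM values, scaled to library size and exonic length. Cxcl13 averaged 171.1 ± 66.3 FPKM over the 8 libraries (SD), followed by Cxcl16 at 54.3 ± 12.0, Cxcl2 at 28.9 ± 10.4 and Cxcl9 at 23.9 ± 14.7 FPKM. Cxcl10 averaged 16.9 ± 7.46 FPKM, and Cxcl1 and Cxcl14 lay close together at 5.45 ± 4.06 and 5.02 ± 1.81 FPKM. Cxcl12 averaged 1.53 ± 0.707 FPKM and Cxcl11 0.206 ± 0.0921 FPKM. Neighbours in this order overlapped in their ranges over libraries, except Cxcl12 (0.96 to 2.83 FPKM) and Cxcl11 (0.09 to 0.33 FPKM).

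The order was nearly the same in both genotypes. By mean FPKM, Cxcl2 ranked above Cxcl9 in KO and below it in WT, and Cxcl1 ranked above Cxcl14 in KO and below it in WT. Cxcl13 made up 50.3%, 60.1%, 26.0% and 60.3% of the summed FPKM of the 9 genes in KO 1 to KO 4, against 59.5%, 54.4%, 60.5% and 58.3% in WT 1 to WT 4. KO 3 thus stood apart from the other libraries. In it Cxcl2 came first, at 29.2% of the sum, against 6.96% to 9.06% in the other KO libraries and 6.19% to 10.7% in WT libraries.

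**Figure D1:**
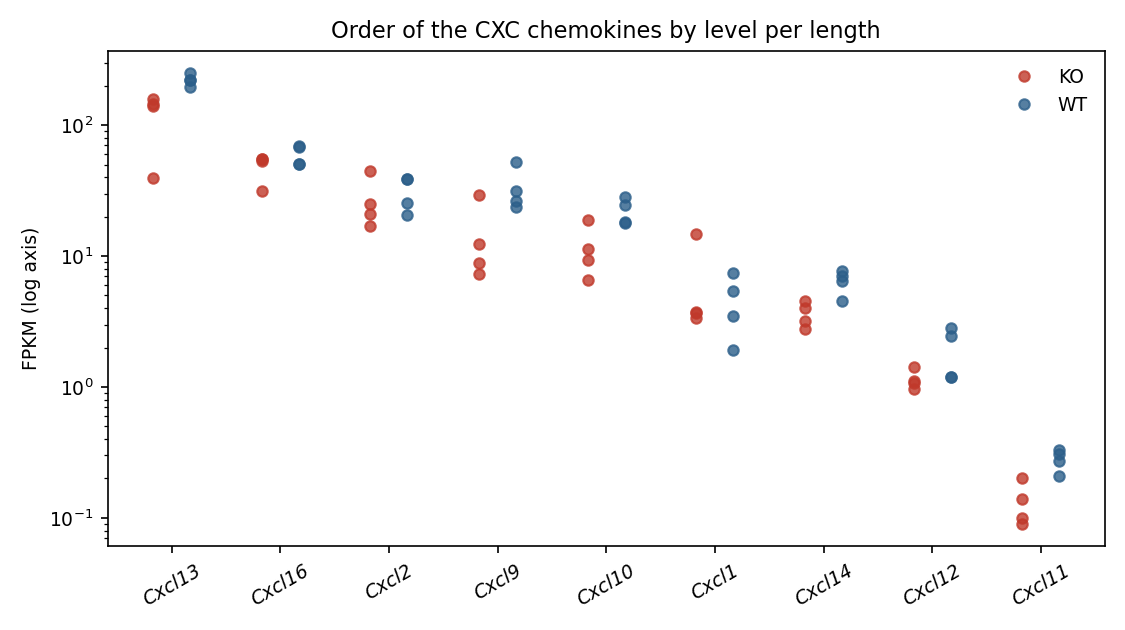
Level of each CXC chemokine in FPKM (log axis) in the 4 KO libraries (red, left) and the 4 WT libraries (blue, right), each point a library, ordered by the mean over all 8. Cxcl13 averaged 171.1 FPKM and Cxcl11 0.206 FPKM, and only Cxcl12 and Cxcl11 are neighbours whose ranges do not overlap.

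Lower values in KO were seen for 8 of the 9 members, Cxcl1 being the exception. The median log2 fold change, KO minus WT, was -0.91, against -0.0028 for all 15870 genes tested, of which 50.4% had a lower value in KO. No member passed the adjusted threshold of 0.05 in edgeR's quasi-likelihood test without a block, a test that called 0.00630% of all genes, Vsig4 alone. An unadjusted p under 0.05 with a lower value was found for 6 of the 9, against 4.56% of all genes, and DESeq2 and limma also called none. The libraries of the 2 genotypes share the numbers 1 to 4, and with the number as a block Cxcl9 and Cxcl14 fell. That is 2 of 9 members, where the blocked test called 5.01% of all genes lower. Every KO library lay below every WT library for 2 of 9 members, Cxcl11 and Cxcl13, against 2.85% of all genes. Whether same-numbered libraries were matched is not stated, so the blocked calls rest on a pairing taken from the data. In both genotypes libraries 3 and 4 also had higher melanoma sums than libraries 1 and 2, and 4 of the 8 libraries were most like the library of their own number. The calls varied with the pair left out. Without pair 1, Cxcl9 was called lower (1.02% of all genes), and without pair 4, Cxcl13, Cxcl14 and Cxcl16 were (4.73%). Without pair 2 or pair 3 no member was called, and the test called 0.00628% and 0.00627% of all genes lower, a single gene each. The log2 fold changes of Cxcl14 ran from -0.96 to -0.81 over these fits. Its adjusted p was 0.0643, 0.0782, 0.0827 and 0.0281 without pairs 1 to 4 in turn (blocked edgeR). Other members varied more, Cxcl13 running from -1.35 to -0.68 and Cxcl10 from -1.49 to -0.75.

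Markers of some cell types in the sort moved the same way as the chemokines, and those of others did not. Of 10 Kupffer cell markers, all 10 were at lower values in KO (median log2 fold change -0.62). With the block 6 were called lower, beside 5.01% of all genes. Markers of sinusoidal endothelium, which also makes CXC chemokines, were lower for 5 of 6 (median -0.73, 3 called with the block). They summed to 488.4, 489.5, 159.8 and 363.6 CPM in KO 1 to KO 4, against 666.8, 608.6, 356.8 and 375.9 CPM in WT 1 to WT 4. Stellate cell and fibroblast markers were lower for 5 of 6 (median -0.99, 1 called with the block). Hepatocyte markers were lower for 6 of 6 (median -0.55) and NK cell markers for 4 of 5 (median -0.52), with 1 called in each. Medians were -0.20 for B cell, -0.16 for monocyte, -0.06 for T cell, 0.04 for dendritic cell and 0.31 for neutrophil markers. Of the 4 monocyte markers, 1 (Plac8) was called lower with the block. With the melanoma covariate the medians were -0.065 for Kupffer cell, 0.18 for endothelial, -1.34 for stellate cell and fibroblast and -1.36 for hepatocyte markers. For the other lists they were 0.765 (T cell), 0.29 (NK cell), 0.101 (neutrophil), 0.033 (B cell), -0.067 (dendritic cell) and -0.161 (monocyte). The part of any of these cells in the chemokine values was not tested.

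**Figure D2:**
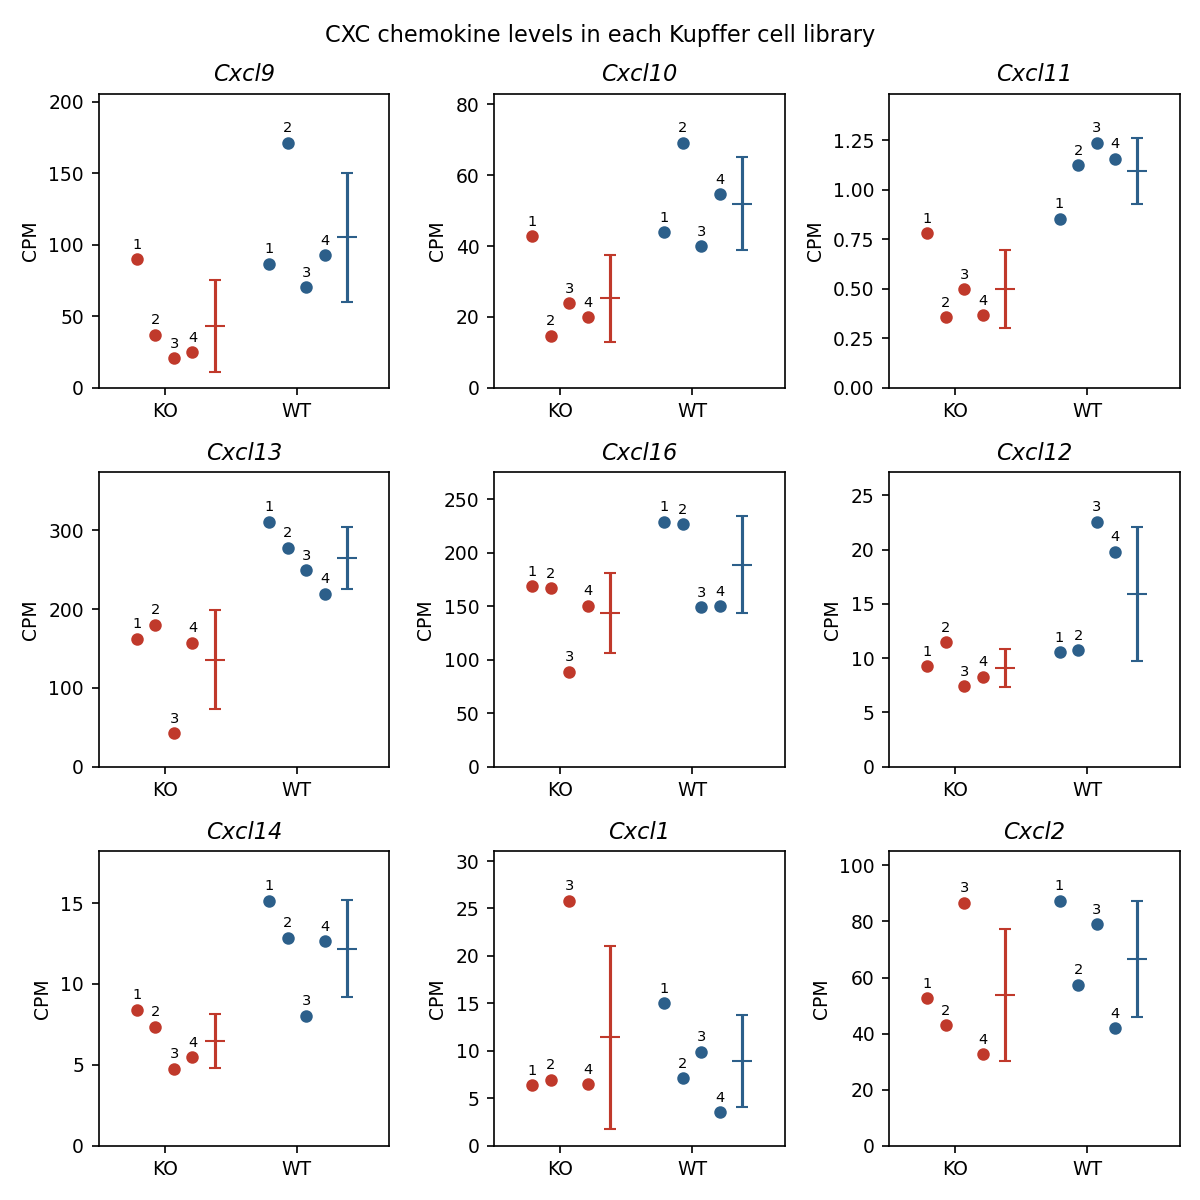
CPM of each CXC chemokine in the 4 KO libraries (red, left) and the 4 WT libraries (blue, right), numbered by replicate, with the mean and SD as a bar to the right of each group. Every KO library lies below every WT library for Cxcl11 and Cxcl13, and KO 3 is the highest library for Cxcl1, at 25.8 CPM, and the lowest for Cxcl13, at 42.8 CPM.

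Among the ligands of Cxcr3, Cxcl9 and Cxcl10 were both abundant and both lower on average in KO. Cxcl9 had 90.0, 37.1, 20.8 and 24.9 CPM in KO 1 to KO 4, against 86.8, 171.5, 70.2 and 92.5 CPM in WT 1 to WT 4. KO 1 lay within the WT range and the other KO libraries below it. The means were 43.2 ± 32.0 CPM in KO and 105.3 ± 45.2 CPM in WT (SD, n = 4 each). The log2 fold change was -1.29 ± 0.49 (SE, adjusted p = 0.492, edgeR). With the replicate block it was -1.47 ± 0.34 (adjusted p = 0.0351). Without pairs 1 to 4 in turn, the blocked value was -1.97, -1.20, -1.36 and -1.32 (adjusted p = 0.00456, 0.0974, 0.125 and 0.0699).

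Cxcl10 had 42.8, 14.6, 23.8 and 19.8 CPM in KO 1 to KO 4, against 43.8, 69.2, 40.0 and 54.6 CPM in WT 1 to WT 4. Only KO 1 reached into the WT range, and KO was lower in each of the 4 numbered pairs. The log2 fold change was -1.04 ± 0.33 (SE, adjusted p = 0.492), and -1.11 ± 0.32 with the block (adjusted p = 0.0548), so Cxcl10 passed neither test. Within each library, Cxcl9 had 210.3, 253.7, 87.2 and 125.4 counts per 100 counts of Cxcl10 in KO 1 to KO 4, against 198.1, 247.7, 175.5 and 169.3 in WT 1 to WT 4. KO 3 and KO 4 lay below all WT libraries in this ratio, and their exact binomial intervals (95%, counting error only), 75.8 to 100.4 and 109.3 to 143.9, did not reach the lowest WT interval, which began at 155.4.

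Cxcl11 was close to the limit of detection. It had 14, 7, 9 and 7 counts in KO 1 to KO 4, against 12, 20, 20 and 18 counts in WT 1 to WT 4. Scaled to library size, these came to 0.357 to 0.779 CPM in KO and 0.854 to 1.24 CPM in WT, so the groups did not overlap. The exact 2-sided permutation p was 0.0286, the smallest that 4 libraries against 4 allow. In edgeR the log2 fold change was -1.12 ± 0.35 (SE, adjusted p = 0.492).

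Cxcl13, the B cell attractant, was lower in every KO library than in any WT library. It had 162.6, 180.1, 42.8 and 157.4 CPM in KO 1 to KO 4, against 311.1, 278.0, 249.1 and 219.5 CPM in WT 1 to WT 4. The means were 135.7 ± 62.7 CPM in KO and 264.4 ± 39.2 CPM in WT (SD, n = 4 each). Non-overlap again fixes the exact 2-sided permutation p at 0.0286, not adjusted over the 9 members. The log2 fold change was -0.96 ± 0.39 (SE, adjusted p = 0.492), and -1.12 ± 0.31 with the block (adjusted p = 0.0532). Without KO 3, which had the lowest value, the log2 fold change was -0.67. Per 1000 counts of the Kupffer cell markers, Cxcl13 had 7.14, 8.07, 5.94 and 9.19 counts in KO 1 to KO 4, against 9.26, 8.29, 13.4 and 10.3 in WT 1 to WT 4. On this scale KO 4 lay within the WT range.

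Cxcl16, the membrane-bound ligand of Cxcr6, differed less. It had 168.7, 166.6, 88.7 and 150.4 CPM in KO 1 to KO 4, against 229.0, 226.5, 149.1 and 149.8 CPM in WT 1 to WT 4. The groups overlapped, since WT 3 and WT 4 lay at the level of KO 4 and below KO 1 and KO 2. In edgeR it was at -0.39 ± 0.24 on the log2 scale, KO minus WT (SE, adjusted p = 0.492), and -0.41 ± 0.13 with the block (adjusted p = 0.0689). With the mean log2 CPM of the melanoma markers as a covariate it was -0.02 ± 0.15. Per 1000 counts of the Kupffer cell markers the means were higher in KO, at 8.99 ± 2.29 in KO and 7.15 ± 0.595 in WT, with overlap. KO 3 was highest on this scale, at 12.3, against 7.41, 7.47 and 8.78 in KO 1, KO 2 and KO 4. When libraries were scaled to these markers in edgeR, Cxcl16 was at 0.33, but the median of all tested genes was 0.82. Its sign thus turned with the scale, while relative to that median it was at -0.49.

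Of the more homeostatic members, Cxcl14 had 8.40, 7.35, 4.76 and 5.46 CPM in KO 1 to KO 4, against 15.2, 12.9, 8.04 and 12.7 CPM in WT 1 to WT 4. KO was lower in each of the 4 numbered pairs, and only WT 3 lay within the KO range. The means were 6.49 ± 1.68 CPM in KO and 12.2 ± 2.98 CPM in WT (SD, n = 4 each). The log2 fold change was -0.91 ± 0.26 (SE, adjusted p = 0.492), and -0.91 ± 0.16 with the block (adjusted p = 0.0254). This is the smallest blocked adjusted p among the 9 members.

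Cxcl12, the stromal ligand of Cxcr4, had 9.24, 11.5, 7.41 and 8.29 CPM in KO 1 to KO 4, against 10.5, 10.7, 22.6 and 19.8 CPM in WT 1 to WT 4. WT 3 and WT 4 stood above all other libraries, while WT 1 and WT 2 lay at the KO level. Its log2 fold change was -0.80 ± 0.29 (SE, adjusted p = 0.492, and 0.121 with the block). Summed markers of stellate cells and fibroblasts were 50.4, 53.5, 37.8 and 50 CPM in KO 1 to KO 4, against 72.3, 87.7, 187.6 and 77.2 CPM in WT 1 to WT 4. All 6 of those markers, Dcn and Col1a1 among them, were detected in every library, and WT 3 was highest for both the marker sum and Cxcl12. The part of stromal RNA in the Cxcl12 values was not tested.

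The neutrophil attractants Cxcl1 and Cxcl2 passed no test between the genotypes. Cxcl1 had 6.40, 6.94, 25.8 and 6.45 CPM in KO 1 to KO 4, against 15.02, 7.13, 9.90 and 3.53 CPM in WT 1 to WT 4. KO 3 had the highest value of all libraries, and the other KO libraries lay within the WT range. The log2 fold change was 0.36 ± 0.58 (SE, adjusted p = 0.742), and it was -0.43 without KO 3. Cxcl2 had 52.6, 43.1, 86.8 and 32.7 CPM in KO 1 to KO 4, against 87.5, 57.4, 79.1 and 41.9 CPM in WT 1 to WT 4. Its log2 fold change was -0.31 ± 0.33 (SE, adjusted p = 0.621, and 0.127 with the block).

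Cxcl1 and Cxcl2 were high in the same libraries. KO 3, WT 1 and WT 3 had the 3 highest values of each. In counts of Cxcl1 per 100 counts of Cxcl2, KO 1 to KO 4 had 12.2, 16.1, 29.8 and 19.7, against 17.2, 12.4, 12.5 and 8.44 in WT 1 to WT 4. The interval of KO 3, 26.8 to 33.1 (exact binomial, 95%), lay above those of all other libraries, the highest of which ended at 24.0 in KO 4.

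**Figure D3:**
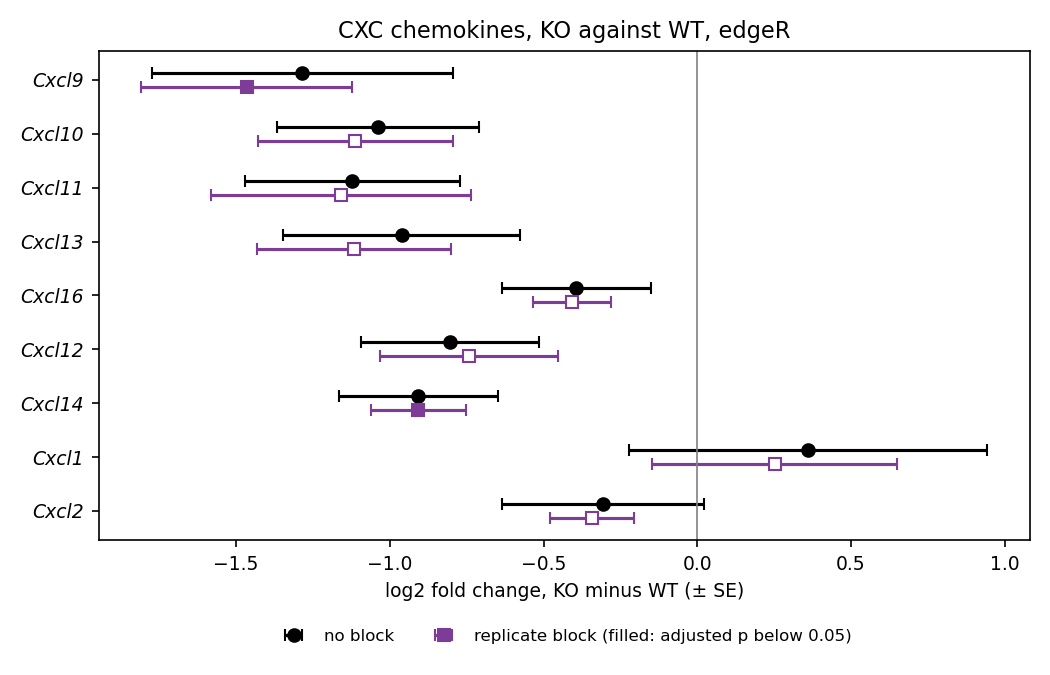
Log2 fold change, KO minus WT, with its SE for each CXC chemokine, in edgeR without a block (black circles) and with the replicate number as a block (purple squares, filled where the adjusted p is below 0.05). Only Cxcl9 (-1.47) and Cxcl14 (-0.91) are filled, and only Cxcl1 lies above 0.

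Melanoma RNA moved with the levels of some members. Over the 8 libraries, Cxcl16 in log2 CPM had Pearson's r = -0.915 with the log2 sum of the melanoma markers (exact permutation p = 0.000248, adjusted p = 0.00223 over the 9 relations). Spearman's rho was -0.905 (exact permutation p = 0.00456, adjusted p = 0.0411), and r was -0.897 without WT 2 and WT 1, which lay farthest from the median melanoma sum. For Cxcl14, r was -0.817 (exact permutation p = 0.0146, adjusted p = 0.0655) and rho -0.857 (exact permutation p = 0.0107, adjusted p = 0.0482), with r = -0.617 without the same libraries. Cxcl9 had r = -0.772 (exact permutation p = 0.0267, adjusted p = 0.0802) and rho = -0.786 (adjusted p = 0.0838), and r = -0.707 without those libraries. Cxcl13 had r = -0.703 (exact permutation p = 0.0428, adjusted p = 0.0963) and rho = -0.738 (adjusted p = 0.103), and r = -0.698 without them. Neither Cxcl9 nor Cxcl13 thus passed the adjusted threshold, and Cxcl14 passed it by rho only. Nor did Cxcl1, Cxcl2, Cxcl10, Cxcl11 or Cxcl12, their r running from -0.579 for Cxcl10 to 0.091 for Cxcl1. Both quantities are shares of the same library's counts. The permutations ran over all 8 libraries without regard to genotype, and the melanoma sums averaged 6350 CPM in KO and 2890 CPM in WT. These p-values thus cannot tell a relation within a genotype from a difference between the genotypes. The relations had been planned as a description without p-values.

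The melanoma covariate in edgeR was the mean log2 CPM of the melanoma markers, not their sum. With it, the log2 fold change was -0.79 ± 0.36 for Cxcl9, -0.83 ± 0.32 for Cxcl10, -0.67 ± 0.35 for Cxcl13, -0.61 ± 0.21 for Cxcl14 and -1.04 ± 0.24 for Cxcl12 (SE). The median of the 9 members was then -0.67, and none was called. When libraries were scaled to the Kupffer cell markers, Cxcl9 was at -0.67, Cxcl13 at -0.44, Cxcl10 at -0.21, Cxcl14 at -0.15, Cxcl16 at 0.33, Cxcl2 at 0.79 and Cxcl1 at 1.74, and none was called. The median of all tested genes was 0.82 on that scale. Relative to that median, Cxcl9 was at -1.49, Cxcl13 at -1.26, Cxcl10 at -1.03, Cxcl14 at -0.97, Cxcl16 at -0.49, Cxcl2 at -0.03 and Cxcl1 at 0.92. Per 1000 counts of the Kupffer cell markers, Cxcl9 averaged 2.49 ± 1.16 in KO, against 3.95 ± 1.06 in WT (SD, n = 4 each). Cxcl10 averaged 1.75 ± 1.15 in KO, against 2.02 ± 0.522 in WT, and Cxcl14 0.419 ± 0.162 in KO, against 0.465 ± 0.0893 in WT. The groups overlapped for each of the 9 members on this scale.

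**Figure D4:**
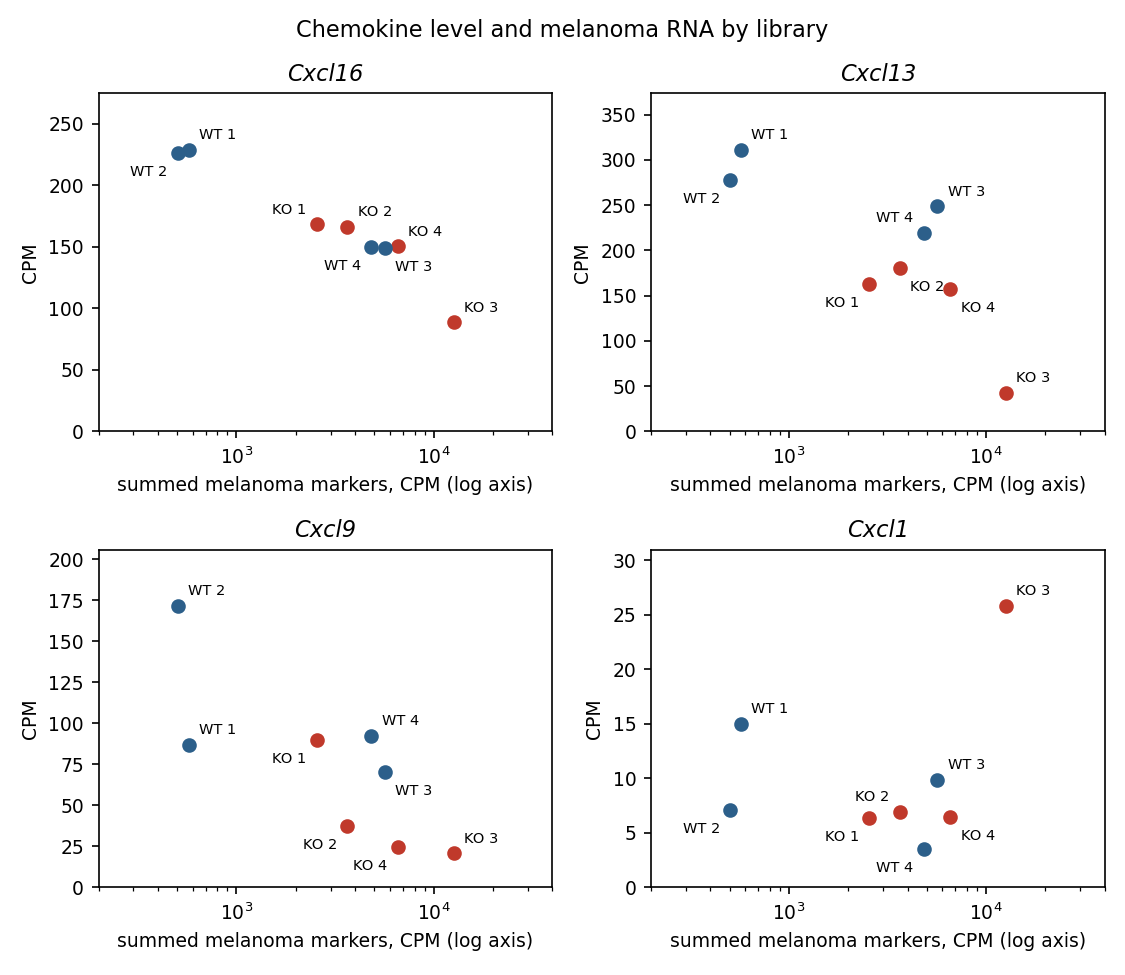
CPM of Cxcl16, Cxcl13, Cxcl9 and Cxcl1 against the summed CPM of 10 melanoma markers (log axis) in the KO (red) and WT (blue) libraries. Cxcl16 falls along the axis in both genotypes (r = -0.915 over the 8 libraries), Cxcl13 is lower in every KO library than in any WT library, and Cxcl1 is highest in KO 3.

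The receptors of these ligands were measured in the same libraries, and none of the 5 tested was called in either fit. Cxcr6, the receptor of Cxcl16 on liver T and NKT cells, had 24.5, 17.2, 6.36 and 3.78 CPM in KO 1 to KO 4, against 13.2, 22.8, 10.9 and 5.53 CPM in WT 1 to WT 4. The 7 T cell markers summed to 151.7, 107.7, 43.2 and 36.4 CPM in the KO libraries, against 91.6, 182.5, 57.9 and 55.5 CPM in the WT libraries, so the libraries ranked in the same order for Cxcr6 as for these markers within each genotype. Cxcr3 averaged 11.2 ± 2.12 CPM in KO libraries, against 12.9 ± 2.69 CPM in WT libraries (SD, n = 4 each). Cxcr4 averaged 43.4 ± 12.3 CPM in KO, against 35.4 ± 7.46 CPM in WT, and Cxcr5 1.51 ± 0.860 CPM in KO, against 1.99 ± 0.761 CPM in WT. Cxcr2, carried by neutrophils, averaged 8.51 ± 4.31 CPM in KO and 5.25 ± 1.35 CPM in WT, with a log2 fold change of 0.69 ± 0.36 (SE, adjusted p = 0.492). It was at 0.29 without KO 1, its highest library. All but one of the 5 neutrophil markers were detected in every library, and they summed to 42.6 to 91.5 CPM in KO and 42.7 to 87.3 CPM in WT. S100a8 had 238 to 657 counts in KO and 259 to 539 in WT, while Ly6g had at most 4 in any library. Cxcr1, Ackr1 and the scavenging receptor Ackr3 were too low to be tested.

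Of 6 other CXC ligands, Pf4, Ppbp and Cxcl3 could be tested and none was called. Pf4, a platelet and megakaryocyte chemokine, averaged 15.7 ± 3.67 CPM in KO and 15.7 ± 4.80 CPM in WT (SD, n = 4 each), a log2 fold change of -0.003 ± 0.26 (SE, adjusted p = 0.997). Ppbp averaged 0.762 ± 0.534 CPM in KO, against 0.949 ± 0.670 CPM in WT, and Cxcl3 0.532 ± 0.250 CPM in KO, against 0.944 ± 0.994 CPM in WT. Cxcl5 had at most 4 counts in any library, and Cxcl15 and Cxcl17 had none. The 4 platelet markers summed to only 1.05 to 1.99 CPM in KO and 0.712 to 3.16 CPM in WT, and Gp1bb had no counts. Which cells the Pf4 RNA came from was not tested.

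Of 5 proteases that act on these ligands, Mmp12 rose and Adam10 fell with the block. That test called 1425 of all 15870 genes higher and 795 lower. Mmp12, the macrophage elastase, which cleaves several CXC chemokines, had 97.1, 175.7, 134.5 and 171.8 CPM in KO 1 to KO 4, against 59.4, 30.3, 49.9 and 75.6 CPM in WT 1 to WT 4. Every KO library lay above every WT library, and the share of all genes that did so is not given here. In log2 terms KO minus WT was 1.43 ± 0.29 (SE, adjusted p = 0.492), and Mmp12 rose in the blocked test (1.46 ± 0.26, adjusted p = 0.0254) and in DESeq2. Adam10, which sheds Cxcl16 from the membrane, averaged 279.5 ± 62.8 CPM in KO and 385.1 ± 120.6 CPM in WT. It fell in the blocked test only (-0.44 ± 0.11, adjusted p = 0.0381), and was at -0.01 with the melanoma covariate. Adam17, which also sheds it, averaged 234.9 ± 54.8 CPM in KO libraries, against 286.5 ± 92.9 CPM in WT, and was not called.

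Upstream of the interferon-induced ligands, each of 10 interferon signalling genes had a log2 fold change below 0 (median -0.29), and 2 fell in the blocked test, which called 5.01% of all genes and 6 of 10 Kupffer cell markers lower. Irf1, a transcription factor induced by interferon-gamma, had 211.2, 135.4, 89.4 and 133.3 CPM in KO 1 to KO 4, against 278.1, 332.3, 204.0 and 327.6 CPM in WT 1 to WT 4. KO 1 lay above WT 3, so the groups overlapped. The blocked log2 fold change of Irf1 was -1.05 ± 0.16 (SE, adjusted p = 0.0254). Stat2, which carries type I interferon signals to the nucleus, averaged 150.4 ± 77.7 CPM in KO, against 255.6 ± 69.0 CPM in WT (blocked -0.88 ± 0.20, adjusted p = 0.0326). The receptor chains Ifngr1 and Ifnar2, at -0.27 and -0.27 without the block, were not called. With the melanoma covariate the list's median was 0.05, with Irf1 at -0.78.

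Among 9 genes of NF-kB, IL-1 and TNF signalling, each had a log2 fold change below 0 (median -0.45), and 4 fell in the blocked test, beside the same 5.01% of all genes and 6 of 10 Kupffer cell markers. Il1b, the inflammatory cytokine, had 285.6, 106.7, 162.9 and 197.2 CPM in KO 1 to KO 4, against 776.8, 462.0, 224.4 and 241.4 CPM in WT 1 to WT 4 (blocked log2 fold change -1.07 ± 0.29, adjusted p = 0.0484). Only KO 1 reached into the WT range. Nfkbia, Myd88 and Tnfrsf1a fell by 0.51, 0.43 and 0.34 on the log2 scale in the blocked test (adjusted p = 0.0417, 0.0335 and 0.0486). With the melanoma covariate the list's median was -0.15. Of the 6 lymphotoxin receptor pathway genes, which act upstream of Cxcl13 in lymphoid tissue, none was called in either test. Ltbr was at -0.07, Nfkb2 at -0.05 and Relb at -0.19 without the block. Without the block, none of the genes on these lists passed the adjusted threshold, and with the block but without pair 2 or pair 3, a single gene of the whole table was called lower.

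**Figure D5:**
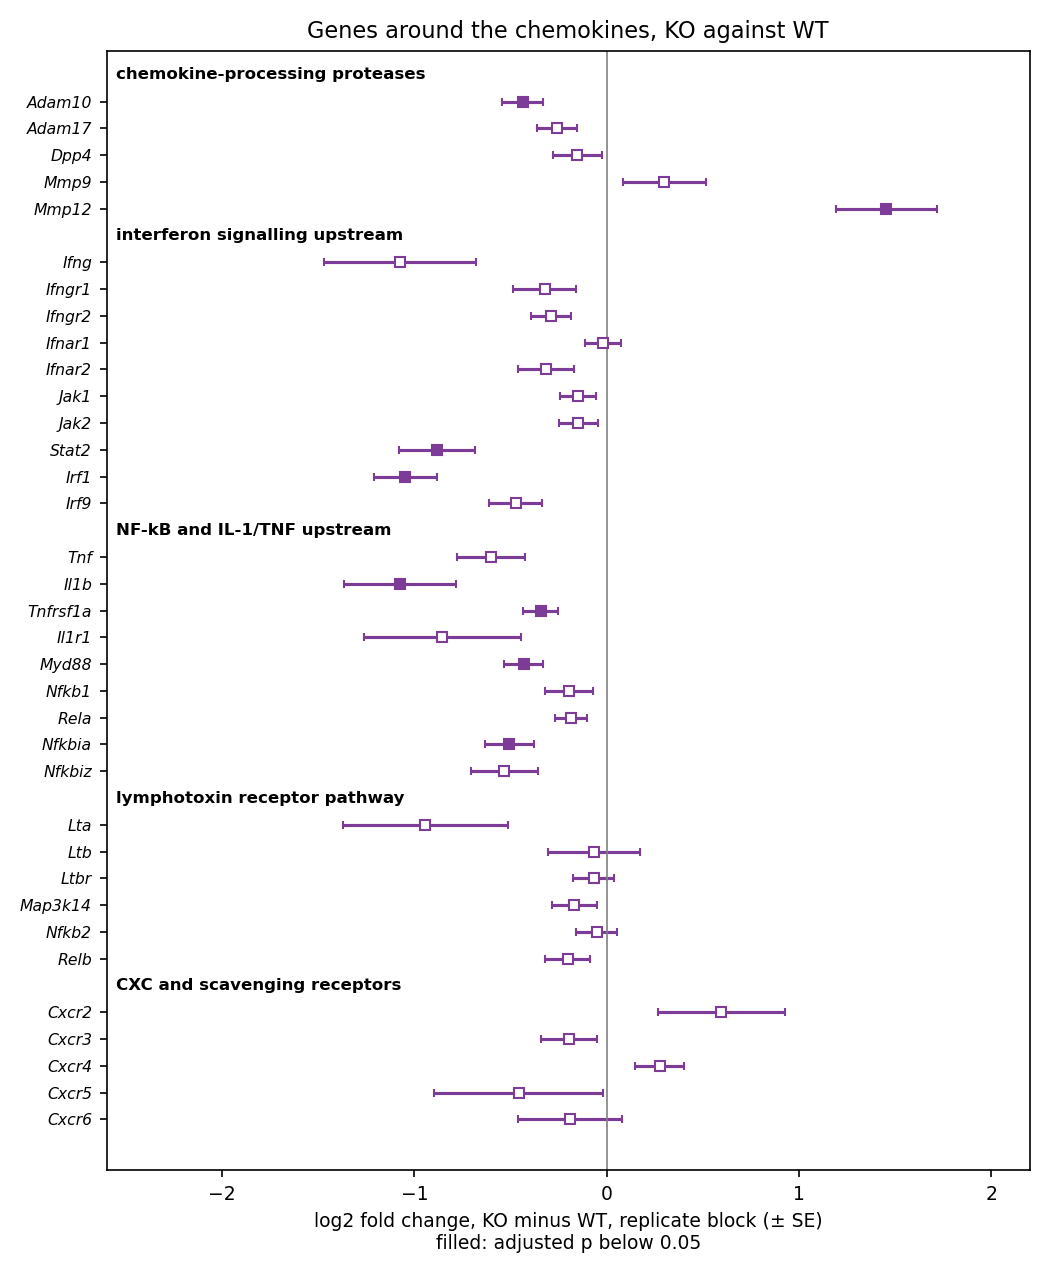
Log2 fold change, KO minus WT, with its SE from the blocked edgeR test, for proteases, upstream signalling genes and receptors of the CXC chemokines, filled where the adjusted p is below 0.05. Mmp12 (1.46) is the only filled gene above 0, and Il1b (-1.07) and Irf1 (-1.05) are the lowest filled genes.

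The genes most like each member were taken by Pearson's r of log2 CPM over the 8 libraries, among 11144 genes. Cxcl11, below 1 FPKM, was left out. For Cxcl9 they were Papss2, Ly6a and Mx1 (r = 0.983 for each), and for Cxcl10 Ccl12 (0.959), Mir5107 (0.937) and Anxa9 (0.931). Cxcl13 was most like Icam2 (0.992), Cplx2 (0.990) and Serinc3 (0.988), and Cxcl16 most like Ebi3 (0.996), Tmem26 (0.996) and Ttyh3 (0.995). For Cxcl14 they were Fam199x (0.972), Fbxo4 (0.971) and Azi2 (0.971). Cxcl12 was nearest to Bgn (0.930), Dcn (0.920) and Chd6 (0.913), Dcn being one of the stromal markers above. For Cxcl2 they were Sec16a (0.974), Plk2 (0.951) and Lnx2 (0.929), and for Cxcl1 Ccdc47 (0.947), Pigt (0.945) and Gabpa (0.944). These are the highest of many correlations over 8 libraries that share a common axis of melanoma RNA, and are given as a description.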

How the data were processed

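RNA of 8 libraries of sorted Kupffer cells was analysed, 4 KO and 4 WT. The submitters' processing notes name the read counter HTSeq (0.6.1) and the build mm10; no aligner, strand setting or annotation release is named, each being not given in the sources used here. The deposited table holds raw counts per gene and the authors' FPKM, per the file headers, which equalled the count over exonic size and column total within 0.015. It also holds exonic sizes and positions, of which only 2.83% equal those of GENCODE M21 (GRCm38), so they are given without a build. Columns lettered K were taken as KO, and those lettered C as WT.

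Genes were kept by filterByExpr (15870), scaled by TMM, and tested in edgeR 4.0.16 (R 4.3.3) by the 2-sided quasi-likelihood F test, p-values being adjusted by Benjamini-Hochberg over the 15870 genes, with calls at 0.05. SEs were derived from the coefficient and the F statistic. Filter, scaling, a replicate block, a melanoma covariate, left-out libraries, DESeq2 1.42.0 and limma 3.58.1 on log2(FPKM + 1) were alternatives. The fit was tested on simulated data. The biological coefficient of variation was 33.3%, and 18% with the block. For a single gene, the exact permutation test enumerated 70 assignments. Counting intervals cover counting error only, since reads were not counted as molecules.

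Deviations from the genotype means correlated between same-numbered libraries at 0.561, 0.544, 0.660 and 0.290. The number was used as a block in alternative fits only, and the main fit had no block. That same-numbered libraries are pairs is read from the data, and the labels do not state it. Members and lists were chosen with earlier results of these data known. Named were all members, their receptors, list genes called in either fit and the 3 most abundant of each list, and the 3 genes most like each member. A planned description of the proteins was not made. A gene of the interferon list is not reported here.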

Additional observations from a re-analysis of the deposited data

Results flagged for a closer look

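Of 18 groups of 4 libraries examined, 1 for each member and genotype, 2 held a library far from the others by Dixon's criterion, and both times it was KO 3. Chance flags about 1 in 20 such groups. Cxcl1 had 25.84 CPM in KO 3, against 6.40 to 6.94 CPM in the other KO libraries, a gap of 0.972 of the range. Cxcl13 had 42.82 CPM in KO 3, against 157.4 to 180.1 CPM in the other KO libraries, a gap of 0.834 of the range. KO 3 also had the highest melanoma marker sum (12624 CPM) and the lowest Kupffer cell marker sum (7210 CPM) of the 8 libraries; the part of either in these values was not tested.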

How the results depend on the processing

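Over 23 alternatives for each of the 9 members, 195 of 207 log2 fold changes kept their direction and side of the threshold, 6 passed the threshold and 6 had the opposite sign. Genes called numbered 1, against 2 without a filter on low counts, 62 with DESeq2 (30 higher, 32 lower), 2220 with the replicate block (1425 higher, 795 lower), 1 to 2 without single libraries (2 without KO 2 or KO 3), and 207, 2, 1 and 2229 with the block without pairs 1 to 4, fits added after the data were seen. Members called numbered 0, 2 with the block, and 0 to 3 with the block without a pair. Their median of -0.91 was -0.41 with limma, -0.67 with the melanoma covariate, -0.55 without WT 1, WT 2 and KO 3, -0.19 with Kupffer marker scaling, -1.06 to -0.72 without single libraries, and -0.94 to -0.68 with the block without a pair. In limma, the 1 added to FPKM shrinks the changes of low members. There Cxcl11 was at -0.18 and Cxcl12 at -0.41, but Cxcl9 at -1.28 and Cxcl13 at -1.05. With Kupffer marker scaling, the median of all tested genes was 0.82, and 6.03% of them had a lower value in KO. Signs under that scaling, under scaling to total counts, and with the block without a pair were examined for members only. Opposite signs were found without WT 1, WT 2 and KO 3 for Cxcl1 (-0.025), Cxcl16 (0.12), Cxcr3 (0.026), Cxcr6 (0.89), Adam10 (0.11), Tnfrsf1a (0.19) and Nfkbia (0.078), with the covariate for Cxcr3 (0.0026), Cxcr6 (0.72) and Tnfrsf1a (0.069), and with Kupffer marker scaling for Cxcl2 (0.79) and Cxcl16 (0.33). Without single libraries Cxcl1 ran from -0.43 (without KO 3) to 0.73 and Cxcr6 from -0.53 to 0.40 (above 0 without KO 3, KO 4 or WT 2); Cxcl1 was at -0.17 with the block without pair 3. The causes were not tested. Over all 8 libraries, the replicate block changed the calls of Cxcl9 and Cxcl14 and of no other member. Only 4 of 8 libraries were most like the library of their own number in the other genotype. Cxcl11 rested on 7 to 20 counts a library.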
